A study of Mus musculus with 4 samples.

Results

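Kidney cells other than macrophages and proximal tubule cells were compared between the 2 libraries taken 5 days after ischemia-reperfusion injury, 1 without and 1 with the probiotic bacterium L. casei Zhang (Lac.z). Cells were chosen by gates on raw counts of marker transcripts, in barcodes that held 200 genes or more and no more than 50% mitochondrial transcripts. The gates took 1228 cells of 7086 kept barcodes without Lac.z and 870 of 7043 with Lac.z, 2098 cells in all, while the whole series held 37839 kept barcodes in 4 libraries. Interferon-stimulated genes, a set of 223 genes in these tables, were left out of every count and list of genes given here.

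The study measured droplet single-cell RNA in kidneys of male C57BL/6 mice after ischemia-reperfusion, in which blood flow to the kidney is blocked and then restored. Mice of the Lac.z group received 1e9 colony-forming units per day by gavage for 4 weeks before the injury, and both groups were killed at day 5. The sources used here do not give the number of animals in a library or the gavage of the control mice. Each group had 1 library, so no difference has a replicate check, no test across libraries was run, and a difference between the groups cannot be told apart from one between animals or preparations.

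The library without Lac.z held 82727595 unique molecular identifiers (UMIs, counts of captured transcripts) in 8424 barcodes, and the library with Lac.z held 76678882 UMIs in 8168 barcodes. Among kept barcodes the median was 9465.5 UMIs without and 8631 with Lac.z, and the median mitochondrial share was 4.49% and 11.4%. The libraries differed in their main cells: the macrophage gate held 53.9% of kept barcodes without and 21.3% with Lac.z, and the proximal tubule gate held 1417 and 4217 barcodes. The 2 libraries shared 9 kept barcodes. Levels are UMIs per 1000000 UMIs of the type (CPM), and a gene needed at least 50 UMIs over both libraries. A call of higher or lower means a difference of 1.5-fold or more, and intervals are exact 95% intervals that cover counting error only.

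As background, neutrophils enter the injured kidney first. They leave the marrow carrying granule proteins and S100 proteins, and in inflamed tissue they switch on chemokine and cytokine genes and age. Monocytes follow and can become macrophages, while T cells and dendritic cells add to the response. Downstream of the proximal tubule, the thick ascending limb, distal convoluted tubule and collecting duct reclaim salt, calcium, magnesium and water, and in injury they lose transport genes and gain keratin, annexin and S100 genes.

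The makeup of the immune cells other than macrophages lay within 1.5-fold in 5 of the 6 larger types, and type 2 conventional dendritic cells (cDC2) were the exception. Of 896 such cells without and 546 with Lac.z, T cells made up 44.5% and 45.2%. Neutrophils accounted for 18.2% and 22.3%, a ratio of 1.23 (0.963 to 1.56). The share of cDC2 was 11.8% without and 6.59% with Lac.z, 1.79-fold lower (1.22 to 2.70). Among dendritic cells alone, cDC2 made up 53.5% and 39.6%, a ratio of 0.739 (0.492 to 1.09), which is within 1.5-fold. Among T cells, CD8 cells accounted for 47.4% and 59.9%, a ratio of 1.26 (1.01 to 1.58). Among 121 and 202 distal cells, the distal convoluted tubule share was 25.6% and 36.6%, a ratio of 1.43 (0.928 to 2.25). Fibroblast or mural cells were few, with 34 and 6 cells, and 2 podocytes were gated in all.

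**Figure D1:**
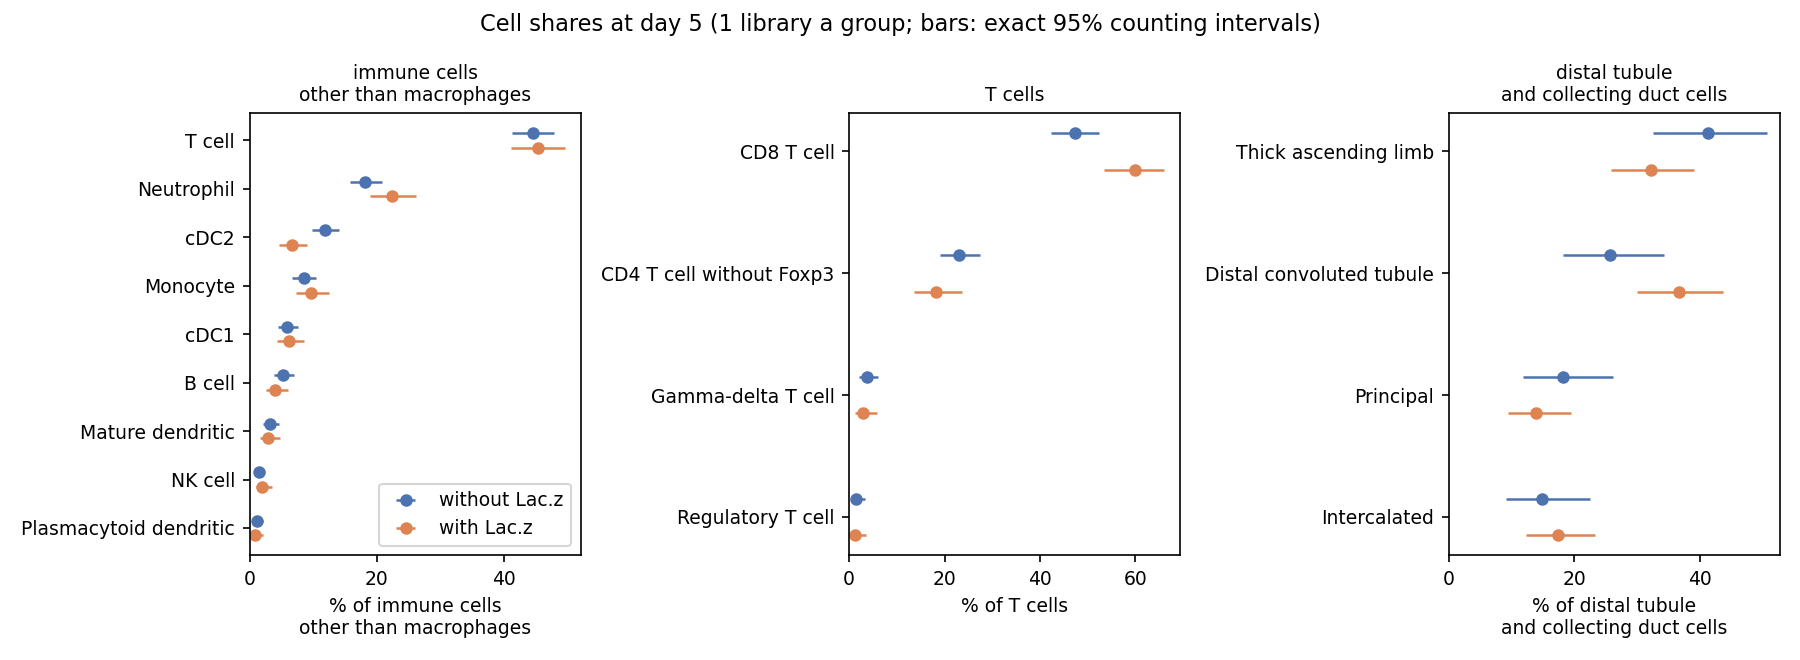
Shares of gated cell types (horizontal axis, percent) within immune cells other than macrophages, T cells, and distal tubule and collecting duct cells, for the library without (blue) and with Lac.z (orange); bars are exact 95% counting intervals. The cDC2 share is lower with Lac.z (6.59% against 11.8%), and the CD8 share of T cells is higher (59.9% against 47.4%).

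Neutrophils of the Lac.z library carried more transcript of granule and S100 genes and less of several NF-kB-linked genes. The gate held 163 cells without and 122 with Lac.z, with medians of 2277 and 2519 UMIs, and all 10 neutrophil markers were detected in both. S100a8 (ENSMUSG00000056054), 1 chain of calprotectin, stood at 32058 CPM without and 70494 CPM with Lac.z, 2.20-fold higher (2.15 to 2.25). Its median per cell was 191 and 470 UMIs per 10000, and its partner S100a9 (ENSMUSG00000056071) was 1.99-fold higher (1.95 to 2.03). The libraries overlapped cell by cell, but the highest S100a8 values were from Lac.z cells. Cells with at least 10 S100a8 and S100a9 UMIs made up 81.0% (74.1 to 86.7) and 92.6% (86.5 to 96.6) of the gate.

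Promoters of 4 of the genes that were higher in neutrophils are printed because a C/EBP-type motif was frequent among them. Of 10 genes of the maturation and granule lists that were higher with an interval excluding 1, 9 had a promoter in the RefSeq table, and 6 of these held the motif. C/EBP proteins are transcription factors of granulocyte development. Each sequence is the 250 bases before the gene's start in GRCm38.p6, 5′ to 3′ on the gene's strand, with the matches in capitals.
S100a9 (chr3:90695722-90695971, minus strand): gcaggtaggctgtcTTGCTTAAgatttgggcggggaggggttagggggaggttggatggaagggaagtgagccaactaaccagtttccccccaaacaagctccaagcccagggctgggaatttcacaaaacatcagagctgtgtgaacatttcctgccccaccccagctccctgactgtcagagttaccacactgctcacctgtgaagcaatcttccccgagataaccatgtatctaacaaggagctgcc
Mmp8 (chr9:7558179-7558428, plus strand): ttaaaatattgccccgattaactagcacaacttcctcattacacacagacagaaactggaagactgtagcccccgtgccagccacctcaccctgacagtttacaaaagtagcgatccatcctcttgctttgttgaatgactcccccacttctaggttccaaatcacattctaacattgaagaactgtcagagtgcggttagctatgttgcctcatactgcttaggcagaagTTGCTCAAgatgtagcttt
Lcn2 (chr2:32387740-32387989, minus strand): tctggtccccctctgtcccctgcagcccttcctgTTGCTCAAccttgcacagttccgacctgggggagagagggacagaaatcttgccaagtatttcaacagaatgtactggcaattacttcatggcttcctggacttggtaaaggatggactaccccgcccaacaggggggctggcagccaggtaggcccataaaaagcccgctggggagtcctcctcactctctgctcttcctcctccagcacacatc
Ngp (chr9:110419558-110419807, plus strand): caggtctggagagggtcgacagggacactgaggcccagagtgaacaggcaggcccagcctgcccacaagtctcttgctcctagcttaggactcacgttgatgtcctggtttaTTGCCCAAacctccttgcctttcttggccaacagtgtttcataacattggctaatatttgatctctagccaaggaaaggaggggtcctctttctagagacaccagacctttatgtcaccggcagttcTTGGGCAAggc
The motif searched was TTGCNNAA on both strands, and 3142 of 32851 promoters (9.56%) held it. A gene was counted if any of its promoters in the table held the motif, and the first promoter with a match is printed. The percentages of all promoters count each promoter singly, so they are not the same measure as the gene counts. Ngp had 2 matches, and the other holders were Ly6g and Slpi, whereas Wfdc21 had no promoter in the table. Of 7 NF-kB-list genes that were lower with an interval excluding 1 and had a promoter in the table, Ptgs2 alone held it. The looser form TTNNGNAA was in 36.8% of all promoters, in 9 of the 9 and in 5 of the 7. An NF-kB-type form (GGG, any 2 bases, TT, any base, CC) was in 4.11% of all, in 0 of the 9 and in 2 of the 7 (Il1rn and Nfkbia). The motif forms were chosen after the genes were known, and a match only describes the letters.

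Granule genes in neutrophils were more often higher than lower. Of 1934 genes measured in this type, 4.08% were called higher and 17.3% lower. In the granule and killing list, 5 of 10 measured members passed 1.5-fold upward and 1 downward (median log2 ratio 0.47, against −0.24 over all genes). Mmp8 (ENSMUSG00000005800), neutrophil collagenase, stood at 261 and 931 CPM, 3.57-fold higher (2.86 to 4.48). It was seen in 35 cells without and 53 with Lac.z, and in 0 of 177 and 0 of 114 endothelial cells, which served as background at medians of 3925 and 4004.5 UMIs. Counts of 0 there allow up to 1.69% and 2.63% of cells with an Mmp8 UMI at that depth, which is no limit on cells that express the gene. Lcn2 (ENSMUSG00000026822), which encodes the iron-binding protein NGAL, stood at 1254 and 2978 CPM, 2.37-fold higher (2.14 to 2.64). Ngp, a gene of secondary granules, had 4 UMIs in 1 cell without and 162 UMIs in 17 cells with Lac.z, a ratio of 44.8 (17.2 to 166). Of its UMIs with Lac.z, 84.6% lay in 3 cells. Ncf1, a subunit of the NADPH oxidase, was the lower member (890 and 496 CPM), while its partners Cyba and Cybb had ratios of 1.13 and 1.01.

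The list of neutrophil maturation and tissue state went both ways, with 9 of 21 measured members higher and 5 lower (list median log2 0.18). The lower members were Siglecf, Icam1, Tnf, Ccl3 and Ccl4. Of the 10 neutrophil markers, most of them gate genes, 4 were higher and 2 lower, with G0s2 lowest (5392 and 2668 CPM). Among the higher members, Ly6g, the classical surface antigen of mouse neutrophils, had 3 UMIs in 3 cells without and 50 UMIs in 16 cells with Lac.z, a ratio of 18.4 (5.96 to 92.5). Wfdc21 (679 and 2227 CPM) was 3.28-fold higher (2.86 to 3.77) and was seen in 42.3% and 62.3% of cells. Chil1 (98.4 and 221 CPM), Cd177 (83.6 and 150 CPM) and Slpi (1953 and 2998 CPM), which encodes a protease inhibitor, were higher by 2.24-fold, 1.79-fold and 1.53-fold. With each cell weighted equally, Cd177 had a log2 ratio of 0.23, no longer past 1.5-fold, and Slpi had one of 0.58. Pglyrp1, a peptidoglycan-binding granule protein, was 2.07-fold and R3hdm4 2.66-fold higher. In the S100 and annexin list, 4 of 6 members were higher and 0 lower (list median log2 0.99, or 0.35 at a minimum of 20 UMIs). S100a6 (2834 and 6246 CPM) and Anxa1, which encodes an annexin that limits neutrophil entry (330 and 656 CPM), were 2.20-fold and 1.99-fold higher. Vim, the vimentin gene, was 2.28-fold higher (1.82 to 2.86).

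**Figure D2:**
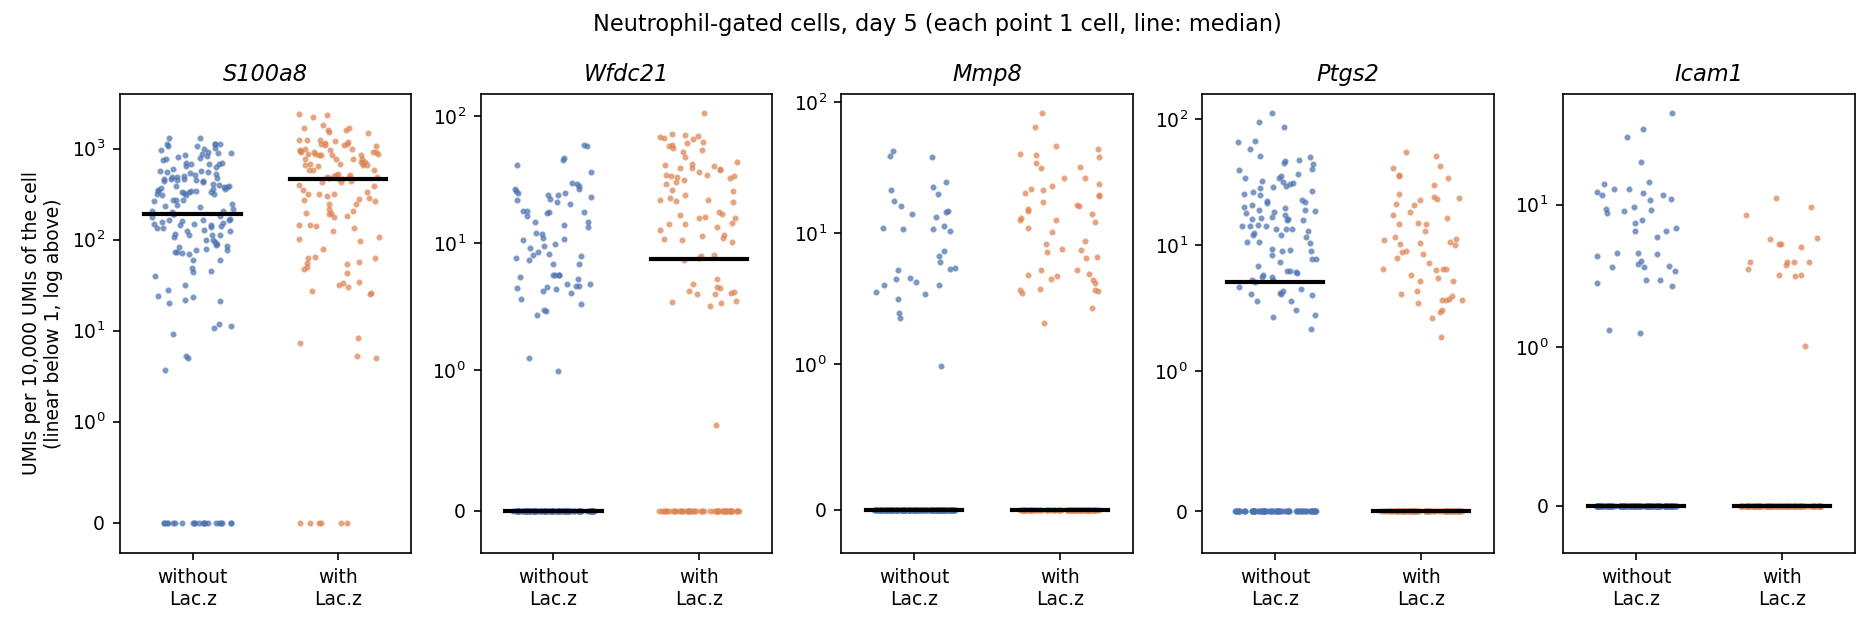
UMIs per 10000 UMIs of the cell (vertical axis, linear below 1 and log above) for 5 genes in each neutrophil-gated cell without (blue, 163 cells) and with Lac.z (orange, 122 cells), with the median as a line. The S100a8 median is 191 without and 470 with Lac.z, while for Ptgs2 and Icam1 a larger share of cells lies at 0 with Lac.z.

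The inflammatory cytokine and NF-kB list went the other way in neutrophils, with 9 of 21 measured members lower and 1 higher (list median log2 −0.54). Icam1, an adhesion molecule, stood at 234 and 62.6 CPM, 3.73-fold lower with Lac.z, with UMIs in 41 and 18 cells. Ptgs2, which encodes the prostaglandin enzyme COX-2, stood at 1186 and 574 CPM, 2.06-fold lower, and was seen in 58.3% and 44.3% of cells. In endothelial cells, Ptgs2 was seen in 1.69% and 1.75%. The chemokine gene Ccl4 (1213 and 240 CPM) was 5.06-fold lower, but 43.6% of its UMIs without Lac.z lay in 3 cells. The abundant cytokine genes stayed within 1.5-fold: Il1b stood at 12766 and 9572 CPM and Cxcl2 at 14594 and 10049 CPM. The exception to the direction was Bcl3, an NF-kB regulator, at 49.2 and 98.0 CPM. Siglecf, a lectin gene known from eosinophils and from aged neutrophils of tissue, stood at 209 and 79.0 CPM, 2.65-fold lower, with a UMI in 28.8% and 18.0% of cells. No Siglecf UMI was seen in the 177 and 114 endothelial cells.

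In other lists in neutrophils fewer members passed 1.5-fold. Of 20 immediate early genes, 7 were lower and 0 higher (list median log2 −0.37), against 17.3% of all genes called lower, among them Egr1 (1.91-fold), Jun (1.84-fold) and the phosphatase gene Dusp2 (2.56-fold). With doubled gate thresholds, Jun had a log2 ratio of −0.49. Of 11 genes of the NRF2 antioxidant list, 3 were lower: Prdx1, Txnrd1 and the cystine transporter gene Slc7a11, at 2.47-fold, 2.18-fold and 1.88-fold. Bcl2a1a and Bcl2a1b, near-identical survival genes whose reads can be split between copies, were lower by 2.92-fold and 2.02-fold. In the cell death and senescence list 2 of 12 members were lower and 0 higher, no more than the 17.3% of all genes called lower. Arl4c, Mpeg1 and Gm19951 were the others named by the rule, at 3.84-fold, 2.93-fold and 2.44-fold lower. Of 13 oxidative phosphorylation genes, 4 were lower, with Ndufa4 at 1.83-fold.

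The scaling sets how many neutrophil genes count as lower. Over all UMIs, 79 genes were higher and 334 lower. With trimmed mean scaling (TMM), which moved every log2 ratio by 0.28, 192 were higher and 131 lower. Under TMM the granule list had 7 of 10 members higher and 0 lower, and the NF-kB list 1 higher and 4 lower. The immediate early list then had 3 lower, and the NRF2 list 1 higher and 3 lower. The oxidative phosphorylation list and the cell death and senescence list had none. Ccl3, Nfkbia and Ncf1 were within 1.5-fold under TMM, while S100a8, Mmp8, Lcn2, Icam1 and Ptgs2 were past it. Haemoglobin UMIs stood at 17.2 and 27367 CPM, and 10008 of the 10052 with Lac.z lay in 1 barcode, which also held 189 of 364 Ccl3 UMIs. Interferon-stimulated genes took 1.85% and 4.00% of neutrophil UMIs, and the macrophage markers summed to 386 and 321 CPM, against 18002 and 20103 CPM in the macrophage gate. Scaled without mitochondrial, haemoglobin, interferon-stimulated and marker UMIs, 92 genes were higher and 267 lower, and without cells of at least 50 haemoglobin UMIs 85 were higher and 295 lower.

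In monocytes, Ly6c2 and Plac8 were higher with Lac.z, and several genes of the NRF2 antioxidant and the glycolysis and hypoxia lists were lower. The gate held 76 cells without and 53 with Lac.z. Of 3520 measured genes, 13% were called higher and 7.9% lower. Ly6c2 (ENSMUSG00000022584), a surface antigen gene of classical monocytes that also responds to interferon, stood at 114 and 2080 CPM, 18.2-fold higher (14.9 to 22.4). It was seen in 26 of 76 and 40 of 53 cells, against 3 of 177 and 1 of 114 endothelial cells. Plac8 (ENSMUSG00000029322; 757 and 4809 CPM) was 6.35-fold higher (5.84 to 6.91). Its level was also higher in macrophages (13.6 and 217 CPM), neutrophils (95.9 and 512 CPM), CD8 T cells (297 and 483 CPM) and endothelial cells (295 and 454 CPM). In the distal convoluted tubule it was lower (84.8 and 1.54 CPM). Ms4a6b (305 and 1100 CPM), Sdc3, Lst1 and Smchd1 were the genes named by the rule, at 3.61-fold, 4.24-fold, 2.76-fold and 3.12-fold higher. The interferon-stimulated share of monocyte UMIs was 1.67% without and 5.70% with Lac.z. Scaled without these and the mitochondrial, haemoglobin and marker UMIs, 530 monocyte genes were higher and 237 lower, against 458 and 278 over all UMIs.

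The NF-kB list in monocytes had 9 of 22 members higher and 2 lower (list median log2 0.36, against 0.03 over all genes). Nfkbiz, an atypical NF-kB regulator, was 2.22-fold higher (1.72 to 2.89), and Nfkbia and Traf1 were 1.70-fold and 3.16-fold higher. The chemokine genes Ccl2 and Ccl4 were 1.71-fold and 1.65-fold higher, but with each cell weighted equally their log2 ratios were 0.40 and 0.27. Cxcl2, a neutrophil attractant (1703 and 519 CPM), was 3.28-fold lower and the cytokine gene Osm 2.74-fold lower. Il1b, at 1546 and 2066 CPM, stayed within 1.5-fold. In the glucocorticoid response list, 4 of 8 members were higher and none lower. The higher ones included Fkbp5 (2.73-fold) and Tsc22d3 (1.65-fold), both textbook targets of the glucocorticoid receptor. Klf9 had the lowest ratio of the list. Under TMM, 3 members were higher and 1, Klf9, was lower, with an interval that included 1. The complement gene C3 was 3.18-fold higher.

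Among 10 NRF2 genes in monocytes, 6 were lower and 1 higher (list median log2 −0.62). They included Slc7a11 (3.90-fold), Txnrd1 (2.12-fold), the thioredoxin gene Txn1 (1.89-fold) and Prdx1 (1.67-fold). The ferritin genes Fth1 (13950 and 8921 CPM) and Ftl1 (10431 and 6920 CPM) were 1.56-fold and 1.51-fold lower. Of 15 glycolysis and hypoxia genes, 5 were lower and 1 higher (list median log2 −0.47), with Pgk1, Aldoa and Ldha at 1.79-fold, 1.67-fold and 1.53-fold. The fibronectin gene Fn1 stood at 1274 and 488 CPM, 2.61-fold lower, with UMIs in 64 of 76 and 24 of 53 cells. Gsto1 (3.01-fold), Mif (2.12-fold), Ccl6 (1.92-fold) and Ier3 (1.88-fold) were the lower genes named by the rule. Arg1, which encodes arginase, was lower (770 and 321 CPM), with 84.4% of its UMIs with Lac.z in 3 cells.

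The monocyte gate mixed 2 kinds of cells in unequal shares. Cells with a UMI of Ace or Treml4, gate genes that mark patrolling monocytes, were 23.7% of the gate without and 41.5% with Lac.z. Cells with at least 3 Chil3, F10 and Vcan UMIs and no Ace or Treml4 made up 63.2% and 41.5%. Among the latter alone, Ier3, Fth1, Ftl1, Aldoa, Prdx1 and Ldha no longer passed 1.5-fold, and Thbs1, which was 1.55-fold lower in the whole gate, had a log2 ratio of 0.12. The NRF2 median was −0.52 in these cells. In the whole gate 5 of 7 proliferation genes were lower (list median log2 −2.94), but Mki67 had 54 UMIs in 5 cells and 3 UMIs in 2 cells. Without the 3 deepest cells of each library, the proliferation median was −0.12.

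**Figure D3:**
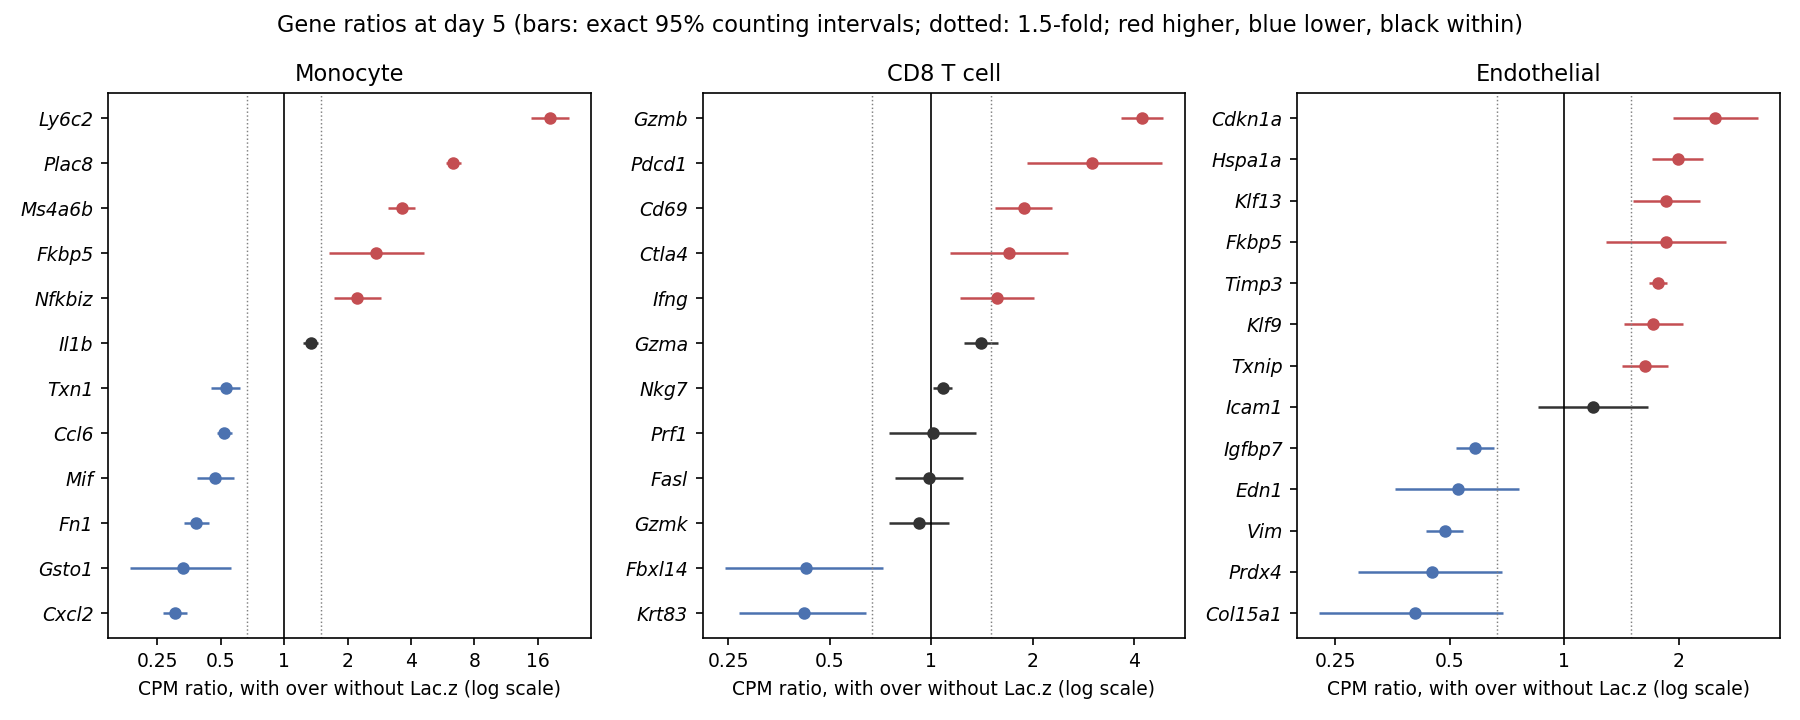
Ratios of CPM with over without Lac.z (horizontal log axis) for named genes in monocytes, CD8 T cells and endothelial cells; bars are exact 95% counting intervals and dotted lines mark 1.5-fold. Ly6c2 reaches 18.2 in monocytes, Gzmb 4.21 in CD8 T cells and Cdkn1a 2.49 in endothelial cells.

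CD8 T cells had more transcript of granzyme B and of the checkpoint receptor genes Pdcd1 and Ctla4 with Lac.z. Of 20 measured cytotoxic effector genes, 2 were higher (Gzmb and Ifng) and 0 lower, and of 11 activation and checkpoint genes 3 were higher and 0 lower. The gate held 189 and 148 cells, with medians of 4679 and 4596 UMIs, and 4.11% of 4134 genes were called higher and 3.77% lower. Gzmb stood at 233 and 981 CPM, 4.21-fold higher (3.65 to 4.87). Its UMIs were seen in 38.6% (31.6 to 46.0) and 64.2% (55.9 to 71.9) of CD8 cells, and in none of the 177 and 114 endothelial cells. Pdcd1, which encodes the checkpoint receptor PD-1, stood at 27.2 and 82.0 CPM, 3.01-fold higher (1.92 to 4.82). Ctla4, another checkpoint receptor gene, was 1.70-fold higher, and the early activation gene Cd69 (169 and 318 CPM) was 1.88-fold higher. Perforin (Prf1) had a ratio of 1.01 (0.749 to 1.36), Gzmk 0.920 (0.749 to 1.13), Fasl 0.986 and Nkg7 1.08. Gzma, at 547 and 769 CPM, had a ratio of 1.41. Ifng was 1.57-fold higher, but had a log2 ratio of 0.13 with each cell weighted equally.

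Over all T cells (399 and 247), 3.55% of 6063 genes were called higher and 3.27% lower. The activation and checkpoint list had 4 of 15 members higher and 0 lower (list median log2 0.17, against 0.03 over all genes), and the cytotoxic list had 1 of 20 higher. Il2ra, the interleukin 2 receptor alpha chain, was 2.20-fold higher, whereas Il2 itself was 1.57-fold lower (75 and 29 UMIs). With each cell weighted equally, Il2 had a log2 ratio of −0.25. Jaml (1.95-fold), Zcchc2 (2.56-fold) and Ralgapa1 (2.53-fold) were higher, and Map2k5 (2.85-fold), Tbc1d4 (2.38-fold), Cd7 (2.01-fold) and P2rx7 (2.01-fold) lower. P2rx7 encodes a receptor for extracellular ATP. In CD8 cells, Csrnp1 (2.55-fold) and Smchd1 (1.67-fold) were higher and Krt83 (2.38-fold), Fbxl14 (2.34-fold) and Add3 (1.80-fold) lower. Cells with a Mki67 or Top2a UMI made up 21.1% and 23.1% of T cells. Of 6 class II antigen presentation genes, 4 were lower in T cells, and the summed macrophage markers were also lower there, at 133 and 72.2 CPM, with 3 of 10 at 0 with Lac.z. Their part in the class II values was not tested.

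CD4 T cells without Foxp3 numbered 92 and 45, and 6.10% of 1983 genes were called higher and 5.75% lower. The chemokine gene Ccl5 (1659 and 3191 CPM) was 1.92-fold higher there, but had a log2 ratio of 0.45 after removal of the highest doublet scores. In CD8 cells Ccl5 had a ratio of 0.794. In the CD4 cells 6 of 7 proliferation genes had lower sums, but the share of dividing cells was not lower: a Mki67 or Top2a UMI was seen in 17.4% (10.3 to 26.7) and 22.2% (11.2 to 37.1) of cells. The cells with such a UMI had medians of 9576 and 5329.5 UMIs, and 87.3% of the 63 Mki67 UMIs without Lac.z lay in 3 cells.

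Endothelial cells had more transcript of some heat shock and glucocorticoid-linked genes with Lac.z, and less of vimentin. The gate held 177 and 114 cells, all 10 endothelial markers were detected, and 4.29% of 4127 genes were called higher and 5.23% lower. Cdkn1a, which encodes the cell cycle inhibitor p21, stood at 123 and 307 CPM, 2.49-fold higher (1.93 to 3.23). It was seen in 23.2% and 51.8% of endothelial cells, against 5.93% and 5.64% of proximal tubule cells at medians of 6955 and 8086 UMIs. Its level was above the endothelial one in neutrophils (799 and 610 CPM), monocytes (424 and 530 CPM) and macrophages (353 and 410 CPM). Timp3, an inhibitor of matrix proteases, stood at 2924 and 5150 CPM, 1.76-fold higher, though its log2 ratio was 0.58 with each cell weighted equally. Klf13 (225 and 418 CPM), Klf9, Txnip and Cdc42ep4, the genes named by the rule, were 1.86-fold, 1.71-fold, 1.63-fold and 1.99-fold higher. Klf2 and Klf4, flow-responsive factors of quiescent endothelium, had ratios of 1.27 and 1.35.

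Of 15 heat shock genes in endothelial cells, 4 were higher and 0 lower (list median log2 0.26). Hspa1a (363 and 721 CPM) and Hspa1b, near-identical copies that can share reads, were 1.99-fold and 1.85-fold higher, and the co-chaperone gene Dnajb1 was 1.63-fold higher. In the glucocorticoid list 3 of 10 were higher and none lower, with Fkbp5 at 70.7 and 131 CPM. In the endothelial activation and adhesion list, 4 of 14 members were higher and 1 lower (list median log2 0.23). Its highest member was Vcam1, with UMIs in 18.1% and 33.3% of cells. Nos3, the endothelial nitric oxide synthase gene, and Thbd, the thrombomodulin gene, were higher, at 85.3 and 131 CPM and at 341 and 513 CPM. Both fell short of 1.5-fold with each cell weighted equally (log2 0.53 and 0.52). Vim stood at 1620 and 787 CPM, 2.06-fold lower, with UMIs in 112 of 177 and 50 of 114 cells. The basement membrane genes Col15a1 (2.47-fold) and Col18a1 (1.60-fold), the matrix gene Bgn (1.83-fold) and Igfbp7 (1.71-fold) were lower. The vasoconstrictor gene Edn1 was 1.90-fold lower in the sum, with UMIs in 15.8% and 16.7% of cells and 35.6% and 55.0% of its UMIs in 3 cells. Scd2 and Prdx4 were 2.28-fold and 2.22-fold lower. Col18a1 had a log2 ratio of −0.49 at a mitochondrial limit of 25%. In the collagen and matrix list as a whole, 3 of 10 members were lower and 2 higher.

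Dendritic cells differed by subset. In cDC2 (106 and 36 cells, 7.46% of 3714 genes called higher and 5.57% lower), 6 of 9 maturation genes were higher and 1 lower (list median log2 0.80). The costimulatory gene Cd86 stood at 95.3 and 216 CPM, 2.27-fold higher (1.72 to 2.98), and the activation gene Cd83 at 151 and 261 CPM, 1.73-fold higher. Without cells holding a Mki67 or Top2a UMI, Cd83 had a log2 ratio of 0.55. Icam1, Tmem123 and Marcksl1 were 2.10-fold, 2.03-fold and 1.88-fold higher, and Sirpa, an inhibitory receptor gene, was 1.89-fold lower. Ccl17, a T cell attractant, was 2.48-fold higher, but 73.3% of its UMIs with Lac.z lay in 3 cells. Without the 3 deepest cells of each library, its log2 ratio was 0.57 and the maturation median 0.57. In type 1 conventional dendritic cells (cDC1; 53 and 34 cells, 4.82% of 3322 genes called higher and 4.12% lower), Cd86 and Cd83 had ratios of 0.851 and 1.38. Mature dendritic cells were few (29 and 16 cells, 14.0% of 1237 genes called higher and 8.41% lower). Cd40 was 2.10-fold higher in them and Ccl17 1.70-fold lower. Under TMM scaling, 2 of their 12 maturation genes were higher and 1 lower, against 5 and 1.

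The B cell gate held antibody-secreting cells in unequal shares. Cells with at least 10 Jchain and Mzb1 UMIs, both genes of antibody assembly, were 1 of 47 without and 8 of 22 with Lac.z (2.13% and 36.4%). Their median was 27367 and 24456.5 UMIs, against 3006 and 4145.5 UMIs in the whole gate. In the sums of this gate, 15.1% of 760 genes were called higher and 52.4% lower, so no gene is described there.

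In the thick ascending limb, which reclaims salt and magnesium, 3 of 16 measured transport genes outside the gate were higher and 1 lower (list median log2 0.32). The gate held 50 and 65 cells, and 5.37% of 3277 genes were called higher and 6.32% lower. Umod, which encodes uromodulin, and the cotransporter gene Slc12a1, stood at 12757 and 14821 CPM and at 3236 and 3744 CPM, but both are gate genes, on which the cells were selected. The potassium channel gene Kcnj1 had a ratio of 1.19 (0.982 to 1.46). The tight junction gene Cldn10 (536 and 926 CPM) was 1.73-fold higher, the prostaglandin receptor gene Ptger3 1.62-fold and the sodium-proton exchanger gene Slc9a3 1.84-fold. Without the 3 deepest cells of each library, Cldn10 had a log2 ratio of 0.57, and with doubled gate thresholds Ptger3 had 0.58. Of 15 immediate early genes, 7 were higher and 0 lower (list median log2 0.48), with Fos at 354 and 843 CPM, Jun at 449 and 859 CPM and Egr1 2.87-fold higher. Of the Fos UMIs without Lac.z, 86.0% lay in 3 cells, and without the 3 deepest cells the list median was 1.44.

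Injury genes in the thick limb pointed both ways, with 6 of 22 higher and 2 lower (list median log2 0.02). Gdf15, a stress cytokine gene, had the highest ratio of the list. Krt8, a keratin gene, was 1.91-fold and Clu, the clusterin gene, 1.56-fold higher. Krt8 was seen in 66.0% and 56.9% of the cells, with 69.4% of its UMIs with Lac.z in 3 cells, so the share of cells did not rise with the sum. Krt8 had a log2 ratio of 0.55 with doubled gate thresholds, and Clu had 0.41 at a mitochondrial limit of 25%. Lcn2 stood at 1451 and 653 CPM, 2.22-fold lower, but its log2 ratio was −0.41 with each cell weighted equally. It was seen in 42.0% and 58.5% of the cells, so the level and the share of cells went in opposite directions. Cdkn1a was 4.13-fold lower, with 93.1% of its UMIs without Lac.z in 3 cells. By the rule, Rab24 (2.15-fold), Fkbp5 (1.85-fold) and Zfp664 (1.61-fold) were higher and Gtf3a (1.94-fold), Rab1b (1.67-fold), Psmd13 (1.66-fold) and Mrpl46 (1.66-fold) lower. Of these, Psmd13 and Rab24 kept their call in every alternative run. With each cell weighted equally, the log2 ratios of Fkbp5, Gtf3a and Mrpl46 were 0.47, −0.47 and −0.19, and at a mitochondrial limit of 25% those of Rab1b and Zfp664 were −0.46 and 0.34.

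The distal convoluted tubule, which fine-tunes salt, calcium and magnesium, had more transcript of the calbindin genes S100g and Calb1 with Lac.z. The gate held 31 cells without and 74 with Lac.z, with medians of 6856 and 7052.5 UMIs, and 8.37% of 2378 genes were called higher and 9.97% lower. S100g (ENSMUSG00000040808), which encodes the calcium-binding protein calbindin-D9k, had 275 UMIs without and 8510 with Lac.z, or 864 and 13127 CPM. That was 15.2-fold higher (13.5 to 17.2), and 96.0% of the UMIs without Lac.z lay in 3 cells. At least 10 S100g UMIs were seen in 2 of 31 and 27 of 74 cells, 6.45% (0.791 to 21.4) and 36.5% (25.6 to 48.5). The part of a different mix of cells in the gate was not tested. In proximal tubule cells S100g stood at 79.8 and 90.1 CPM. Calb1, which encodes calbindin-D28k, stood at 606 and 2789 CPM, 4.60-fold higher (3.96 to 5.36), with UMIs in 15 of 31 and 57 of 74 cells. It was seen in 0.565% and 0.522% of proximal tubule cells. The gate gene Slc12a3, the thiazide-sensitive cotransporter, stood at 3977 and 7631 CPM.

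Egf (239 and 578 CPM), whose peptide opens the magnesium channel, was 2.42-fold higher, and the kinase gene Wnk1 was 1.65-fold higher. Without the 3 deepest cells of each library, Wnk1 had a log2 ratio of 0.48. Of 17 genes of the distal salt and magnesium transport list, 6 were higher and 0 lower (list median log2 0.36, against −0.08 over all genes). In the libraries without Lac.z at days 14 and 28, made with software 3.1.0 rather than 3.0.2, S100g stood at 6219 and 3869 CPM in this gate, and Calb1 at 2267 and 2588 CPM.

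Immediate early genes in the distal convoluted tubule were higher for 11 of 13 members and lower for 1 (median log2 1.22). Jun stood at 477 and 1527 CPM, 3.20-fold higher (2.69 to 3.82), and Fosb and Atf3 were 5.92-fold and 4.07-fold higher. The shares of cells differed less, at 51.6% and 58.1% for Jun, 19.4% and 25.7% for Fosb and 16.1% and 25.7% for Atf3. Jun was also higher in proximal tubule cells, at 1531 and 2934 CPM. Klf6, at 361 and 190 CPM, was the member that was lower. Hspa1a stood at 56.5 and 497 CPM, with UMIs in 35.5% and 50.0% of cells and medians of 0 and 0.22 per 10000 UMIs.

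Injury and repair genes were lower in the distal convoluted tubule, with 17 of 20 members lower and 0 higher (list median log2 −0.92). Some members were seen in most cells: Spp1 in 96.8% and 97.3%, Krt7 in 71.0% and 66.2%, and Lgals3 in 80.6% and 56.8%. The Lgals3 median was 3.34 without and 1.08 with Lac.z per 10000 UMIs of the cell. Other members lay in few cells. S100a6 had 854 UMIs without and 27 with Lac.z, and 97.8% of the former lay in 3 cells. At least 10 S100a6 UMIs were seen in 4 of 31 and 1 of 74 cells. Krt18, a keratin gene, had 165 and 42 UMIs, and Cryab, a small chaperone gene, was 12.1-fold lower. Spp1, which encodes osteopontin, stood at 18712 and 10637 CPM. Without the 3 deepest cells of each library, the list median was −0.25 and Spp1 had a log2 ratio of −0.11. Lcn2, at 1734 and 1669 CPM, had a ratio of 0.963.

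**Figure D4:**
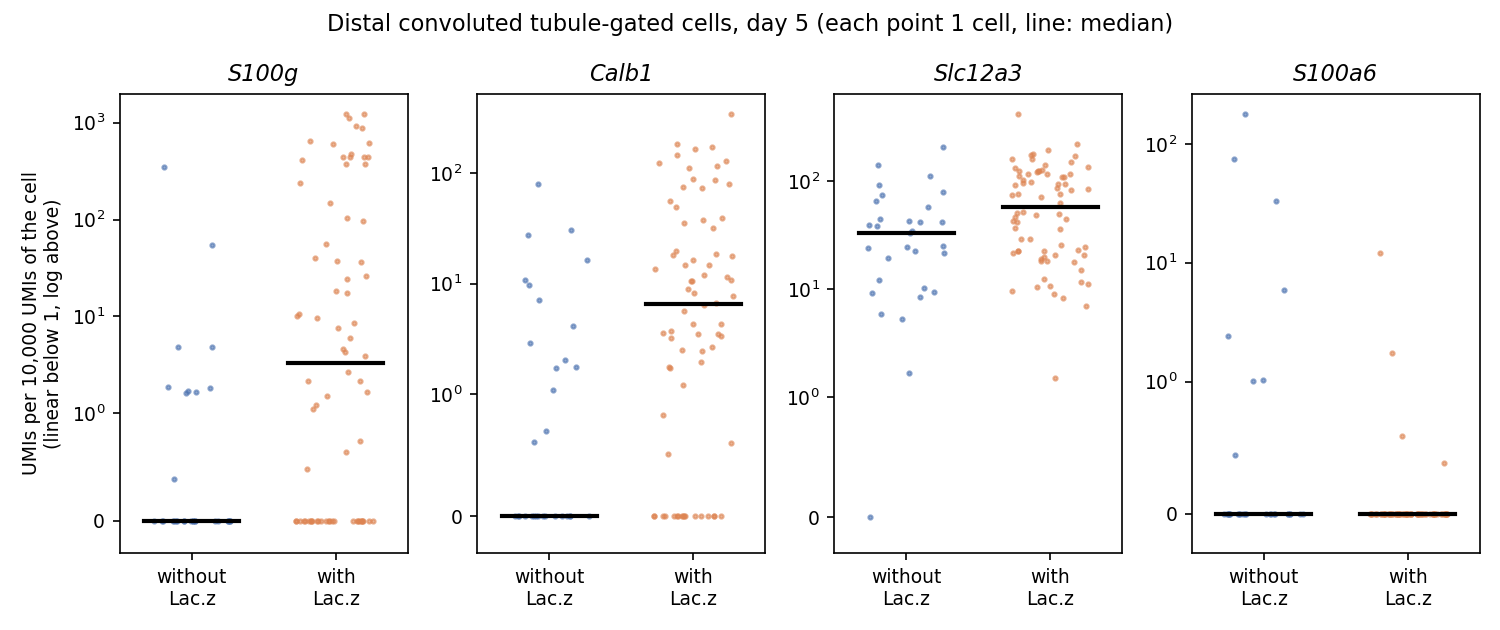
UMIs per 10000 UMIs of the cell (vertical axis, linear below 1 and log above) for 4 genes in each distal convoluted tubule-gated cell without (blue, 31 cells) and with Lac.z (orange, 74 cells), with the median as a line; Slc12a3 is a gate gene. The S100g median is 0 without and 3.30 with Lac.z, and the S100a6 signal without Lac.z comes from 8 cells.

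The collecting duct gates were small, with 22 and 28 principal cells and 18 and 35 intercalated cells. In principal cells, 5.29% of 2533 genes were called higher and 8.61% lower. S100g stood at 1416 and 12841 CPM there, 9.07-fold higher, with 86.8% and 49.3% of its UMIs in 3 cells. It went the other way in the thick limb (178 and 70.3 CPM) and in intercalated cells (1988 and 405 CPM), where 92.8% and 88.2% of the UMIs without Lac.z lay in 3 cells. Calb1 was 1.80-fold higher, but had a log2 ratio of −0.18 with doubled gate thresholds. Sgk1, the aldosterone-induced kinase gene, was 2.17-fold higher (1.52 to 3.13) and Wnk1 2.93-fold. Without the 3 deepest cells of each library, Sgk1 had a log2 ratio of 0.56. The water channel genes Aqp3 and Aqp2 (a gate gene) had ratios of 1.26 and 0.713, while Aqp4 was 2.08-fold lower. The stress cytokine gene Gdf15, at 561 and 181 CPM, was 3.11-fold lower.

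In intercalated cells, which secrete acid or base, 6.81% of 2512 genes were called higher and 12.5% lower. Car2, the cytosolic carbonic anhydrase gene, stood at 1334 and 2750 CPM, 2.06-fold higher (1.86 to 2.28), and the ammonia channel gene Rhcg was 2.14-fold higher. The exchanger gene Slc4a9, known from base-secreting cells, was 2.05-fold lower. Cells with more Slc4a1 and Aqp6 than Slc26a4 UMIs, gate genes of the acid-secreting kind, were 6 of 18 and 23 of 35. Of 21 injury genes, 14 were lower and 0 higher (list median log2 −1.08), with Spp1 at 19748 and 7297 CPM, Lgals3 4.83-fold lower and Krt8 3.19-fold lower. S100a6 had 1032 UMIs in 6 cells without and 4 UMIs in 2 cells with Lac.z. After removal of the highest doublet scores the injury median was −0.58. Of 10 unfolded protein response genes, 7 were lower and 0 higher (list median log2 −0.67).

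**Figure D5:**
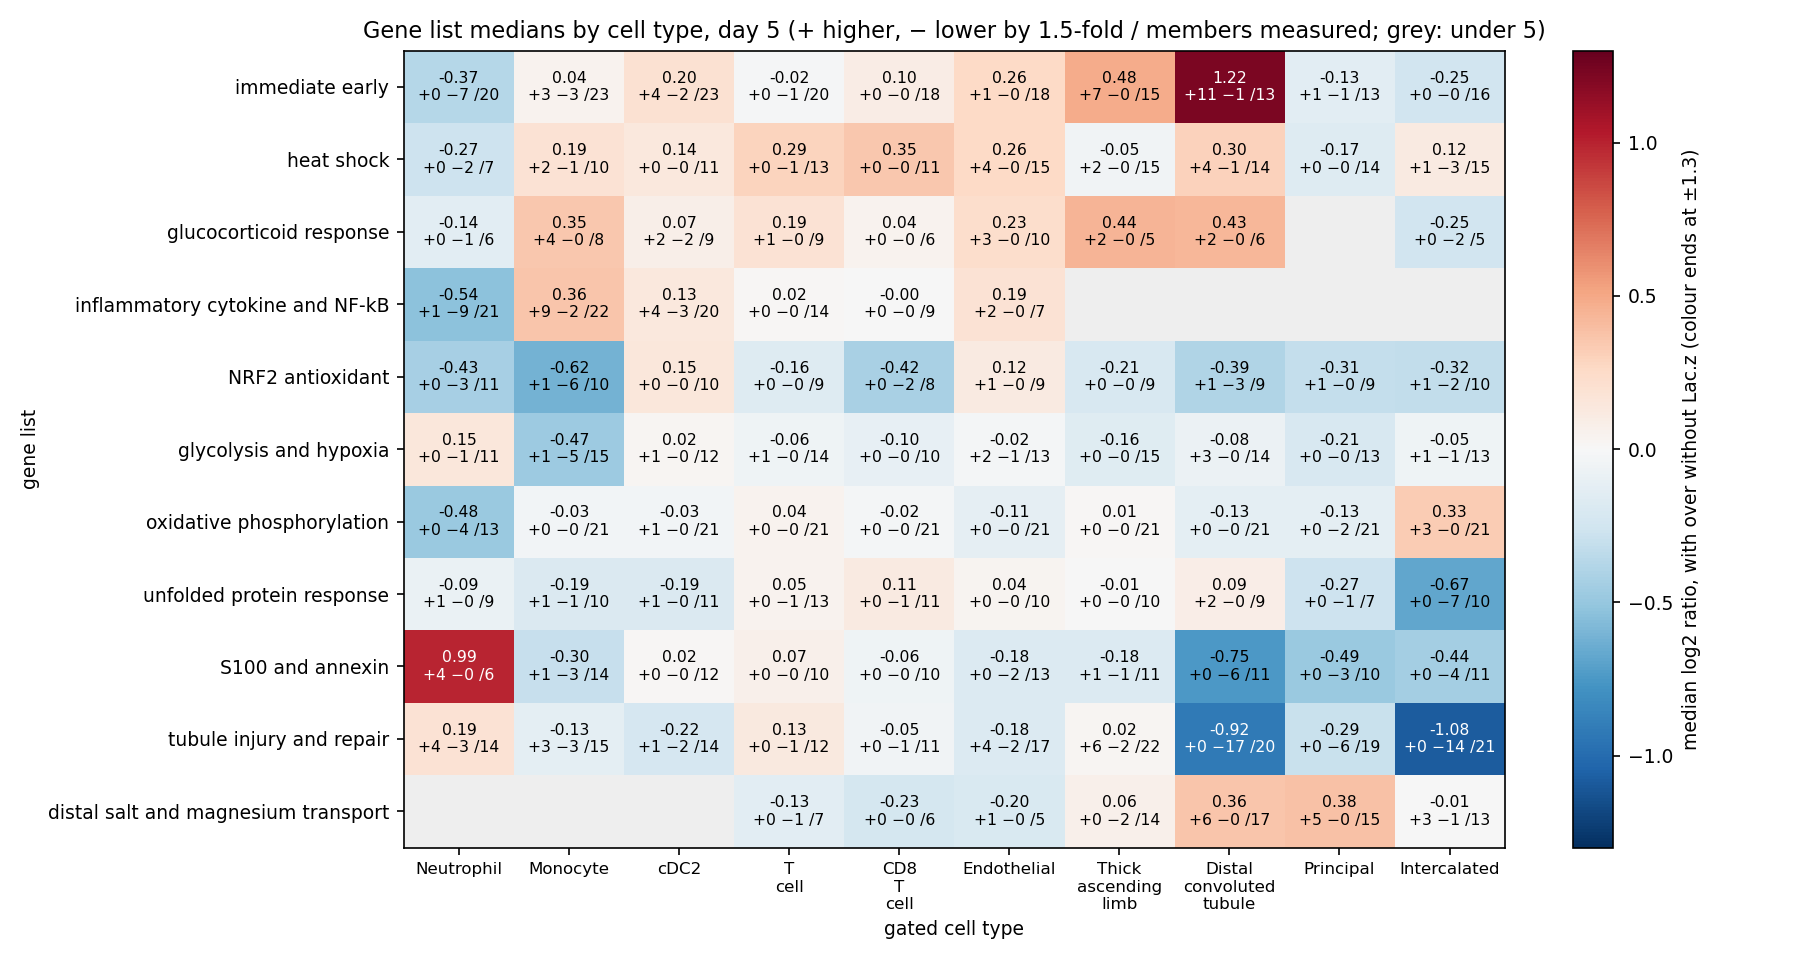
Median log2 ratio with over without Lac.z (colour) for 11 gene lists (rows) in 10 gated types (columns), with the number of members higher and lower by 1.5-fold and the number measured. Immediate early genes have a median of 1.22 in the distal convoluted tubule and −0.37 in neutrophils, and the NF-kB list has 0.36 in monocytes and −0.54 in neutrophils.

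Across 13 types, with T cells as 1 type, the macrophage and proximal tubule gates counted in and the B cell gate left out, few genes moved one way in many types. Ly6c2 was higher in 5 of the 5 types that measured it, among them macrophages (2.15 and 71.4 CPM). Nampt, the rate-limiting enzyme gene of NAD salvage, was higher in 6 of 10 types: monocytes (37.4 and 115 CPM), T cells, endothelial cells, thick limb, cDC2 and principal cells. Ccnd2, which encodes cyclin D2, was higher in 5 of 8, for example mature dendritic cells (426 and 904 CPM). Smchd1, a chromatin silencing gene, was higher in 6 of 12, most in monocytes. Nupr1, a stress response gene, was lower in 7 of 10 types, and AY036118 in 6 of 13.

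Some genes that moved in many types were abundant in another gate. Gpx3, a secreted peroxidase gene, was higher in 8 of 12 types and lower in 1, and stood at 10661 and 12201 CPM in the proximal tubule gate. Apoe was lower in 7 of 13 types and Lyz2, the lysozyme gene, in 7 of 10. In the macrophage gate, Apoe stood at 29952 and 26806 CPM and Lyz2 at 19601 and 13546 CPM. The macrophage gate held fewer cells with Lac.z and the proximal tubule gate more, and the part of free RNA from these cells in Gpx3, Apoe and Lyz2 was not tested.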

How the data were processed

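Droplet libraries of mouse kidney were analysed from the deposited matrices, which held raw counts of UMIs for each gene in each barcode, per the file headers. The matrices listed 31053 genes, with names and identifiers from the files. The headers named software 3.0.2 for both day 5 libraries. Per the labels' protocols, kidneys were enzyme-digested and filtered, and red cells were lysed. Per the submitters' processing notes, mm10 was the build. No aligner is named in these sources.

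A barcode was kept if it had 200 genes or more and no more than 50% mitochondrial UMIs. A barcode joined a type when it held a minimum of UMIs from that type's marker genes (18 gates, for example at least 5 UMIs from at least 2 of C1qa, C1qb and C1qc for macrophages). Barcodes that passed the gates of more than 1 lineage (361 without and 320 with Lac.z) were left out, and 261 and 139 passed no gate. No doublet caller was used in the main analysis: the threshold that Scrublet set itself marked 161 and 1 barcodes, so removal at 0.8% per 1000 barcodes (402 and 397) was run as an alternative.

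UMIs were summed per library and type and scaled to CPM. Ratios carry exact conditional binomial intervals and shares exact Clopper-Pearson intervals. A call needed 50 UMIs over both libraries and a 1.5-fold ratio, with 1 UMI added to each sum. Types with at least 50 cells in both libraries, or at least 15 as an addition, were analysed. Lists (37) were summarised by counts and medians, leaving out interferon-stimulated genes and the type's own gate genes. The genes named by the rule were the 4 highest and 4 lowest in each larger type by the interval bound nearest to 1. They needed UMIs in at least 10 cells, at most 20% of UMIs in the top 3 cells, and at least 0.5 times the level in the macrophage and proximal tubule gates. List members and genes called one way in at least 6 of 14 types were also named; the counts of types leave out the B cell gate. The cell types, members and lists were chosen with earlier results of these data known.

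Python 3.11.15, numpy 2.4.6, scipy 1.17.1, pandas 2.3.3, scanpy 1.11.5 and, for TMM scaling of the counts as an alternative, edgeR 4.0.16 were used. The calls were tested on simulated counts for neutrophils and T cells with counting error only. These counts hold no spread between cells or animals, so they cannot show how the calls behave under it. The alternatives were a mitochondrial limit of 25%, doublet removal, doubled gate thresholds, TMM, minimums of 20 and 200 UMIs, scaling without mitochondrial, haemoglobin, interferon-stimulated and marker UMIs, and equal weight for each cell. Narrower neutrophil and monocyte gates, and leaving out dividing, deepest or haemoglobin-rich cells, were added after seeing the data. Some measured genes are not reported here.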

Additional observations from a re-analysis of the deposited data

Results flagged for a closer look

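Some genes were past 1.5-fold in opposite directions in different cell types of the same 2 libraries, and these differences were not tested. Gm19951 had a log2 ratio of 1.79 in monocytes and −1.28 in neutrophils. Ier3, an immediate early gene, had a log2 ratio of 0.61 in the thick ascending limb, against −0.83 in neutrophils, −0.91 in monocytes and −0.86 in T cells. Vim had a log2 ratio of 1.18 in neutrophils and −1.04 in endothelial cells.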

How the results depend on the processing

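No paired analysis was possible because each group had 1 library. Of the gene values named, 1941 recomputed values kept their direction and their side of 1.5-fold, 116 fell within it, 3 passed it and 4 changed sign. The last were Thbs1 in monocytes (log2 0.12 in the narrower gate), Calb1 in principal cells (−0.18 with doubled gates), and the gate genes Slc26a4 (0.24 at a mitochondrial limit of 25%) and Slc4a1 (−0.041 with doubled gates) in intercalated cells. The cause was not tested. The ratios of shares stayed within their main intervals in 24 alternatives. Counts of genes higher and lower moved most with the UMI minimum, which sets how many genes are measured. At a minimum of 20 UMIs they were 179 and 943 in neutrophils, 961 and 687 in monocytes, 559 and 513 in T cells, 551 and 511 in CD8 cells, 574 and 612 in endothelial cells and 558 and 711 in the thick limb. At 200 UMIs they were 28 and 57, 67 and 60, 14 and 14, 13 and 15, 20 and 17, and 22 and 10 in the same order. Under TMM they were 192 and 131 in neutrophils and 85 and 181 in mature dendritic cells (173 and 104 in the main scaling). With each cell weighted equally, 220 neutrophil genes were lower, 282 endothelial genes were higher, and 269 thick limb genes were higher and 418 lower. In the narrower monocyte gate 259 genes were higher. Gates under 50 cells, and genes with few UMIs, limit what could be seen.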
